A study of Homo sapiens with 1536 samples.

Results

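ZR-75-1, the estrogen receptor-positive (ER+) line of a pooled breast cancer screen, was compared with the other 4 lines of the pool for its response to all but 8 of the 180 compounds screened, at 8 wells per compound out of the 1536 wells of the series. The members were every compound with deposited relative cell numbers, which 6 compounds lacked, except Ruxolitinib and STF083010, which the study's methods set aside. QMAP-Seq, the assay used, counts pooled cells by sequencing the DNA barcodes that mark their cell line and their sgRNA. Each well held ZR-75-1, SKBR3 (HER2+) and BT-20, HCC-38 and MDA-MB-231, which are triple-negative, and every line carried 12 sgRNAs, 11 against a gene of the proteostasis network or a transporter and sgNT, which pools 5 non-targeting guides. All lines carried a doxycycline-inducible Cas9 and were sorted for medium GFP, selected with puromycin, grown in a common medium, and given doxycycline at 100 ng/mL for 7 days, after which they received a compound or DMSO for 72 h. The DMSO group comprised 96 wells, and each compound had 4 doses in 10-fold steps with 2 replicate wells per dose. Dose ranges ended at 10 µM for most compounds and at 1 µM for those given the low range. During the earlier sorting for GFP, Cas9 was induced with 100 ng/mL doxycycline in ZR-75-1, SKBR3 and BT-20 and with 10 ng/mL in the other two lines. The 2 replicates were separate wells of the same cell pool, so that p-values measure only the spread between these wells, and each subtype other than triple-negative is represented by a single line.

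Reads were assigned to a line by an 8-nt barcode alone, and the sequences are shown because every value below rests on telling them apart. Bases that differ from the ZR-75-1 barcode at the same position are in capitals.
ZR-75-1: atcactgg
SKBR3: CGGTGACC
HCC-38: TAcaGAgg
MDA-MB-231: TAACAGTT
BT-20: atTGTCAA
The closest barcode, that of HCC-38, differed from ZR-75-1 at 4 positions, that of BT-20 at 6, and those of SKBR3 and MDA-MB-231 at 8, while the counting allowed 1 mismatch. No RNA or protein was measured in the files used here, so the identity of ZR-75-1 could not be checked against the estrogen receptor or any other marker.

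The estrogen receptor is a hormone-activated transcription factor that drives growth in luminal breast cancer. 4-Hydroxytamoxifen (4-OHT), the active metabolite of tamoxifen, competes with estrogen for the receptor, and Fulvestrant binds the receptor and leads to its degradation. Aromatase inhibitors act elsewhere, on the enzyme that makes estrogen. Signaling from insulin-like growth factor (IGF1) and PI3K is known to cooperate with the estrogen receptor in luminal cells.

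The relative cell number is the number of cells in a well as a percent of the DMSO median, here averaged over 10 sgRNAs, and the AUC is the area under its curve over the 4 doses. sgHSF1 and sgKEAP1 were left out in all lines because too few ZR-75-1 cells carried them. Untreated cells have an AUC of 300, and a lower AUC means fewer cells. In the 96 DMSO wells the relative cell number of ZR-75-1 was 101.6 ± 14.3 (SD, n = 96), and ZR-75-1 minus the mean of the other lines was 0.155 ± 10.3. An AUC difference built from 4 independent DMSO wells would therefore have an SD of 16.3. ZR-75-1 contributed 15046 to 123915 reads to a DMSO well and up to 247935 to a compound well, with medians of 54349 and 53646, and the smallest count of a compound well was 2.69% of the DMSO median. Whole wells held 30125 to 1919950 reads with compound and 155067 to 986006 with DMSO. Barcode pairs that were never made, a sign of swapped barcodes, reached a median of 1.43% of the reads that random pairing would give in compound wells, with a highest value of 40.9%, and 1.63% in DMSO wells.

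ZR-75-1 had the lowest median AUC of the 5 lines, 255.7, beside 259.9 in SKBR3, 263.1 in MDA-MB-231, 272.4 in HCC-38 and 275.9 in BT-20. Its AUC ranged from 50.9 for RITA to 370.7 for Blebbistatin, and 20 compounds brought it under 150. That count was 27 in SKBR3, 24 in MDA-MB-231, 20 in HCC-38 and 14 in BT-20. At the highest dose, 86 compounds left under 50% of ZR-75-1 cells, more than in SKBR3 (77), HCC-38 (60), MDA-MB-231 (81) or BT-20 (56). Under 10% at that dose the order differed, with 14 compounds in ZR-75-1, 25 in SKBR3, 17 in MDA-MB-231, 14 in HCC-38 and 7 in BT-20. These counts describe the lines and were not tested. The mean SD of the 2 replicates was also highest in ZR-75-1, at 13.9 AUC units against 9.99 to 12.1 in the other lines.

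The main question was for which compounds ZR-75-1 stood apart from the average of its pool partners. With limma and Benjamini-Hochberg adjustment over all compounds compared, ZR-75-1 had a lower AUC for 19 compounds, 11% of those tested, and a higher AUC for 12, or 6.98%, at an adjusted p of under 0.05. With the replicate block, which pairs lines from the same wells, the lower calls numbered 40, or 23.3%. With the spread between the 4 other lines as the error, in place of that between wells, limma made 0 lower and 0 higher calls (4 and 3 at an unadjusted p of under 0.05). Calls were not particular to ZR-75-1, as the first limma fit also made them for each other line against its own 4 partners. The lower and higher calls numbered 24 and 4 for SKBR3 and 14 and 23 for HCC-38. They were 24 and 12 for MDA-MB-231 and 1 and 42 for BT-20. With 1 ER+ line, a difference of the line and of its subtype cannot be told apart. Over all compounds the median difference was −3.23 (quartiles −17.2 and 7.86), with 98 compounds below 0 and 74 above. The standard error of a difference had a median of 9.21 AUC units (range 6.18 to 28.3). Across compounds, the differences of the 2 replicates had a Pearson r of 0.741 (n = 180 less 8 compounds), the sign was the same in both replicates for 70.9% of the compounds, and this held for all 31 called compounds. The calls rest on the same 2 replicates, which favors a shared sign among them.

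**Figure D1:**
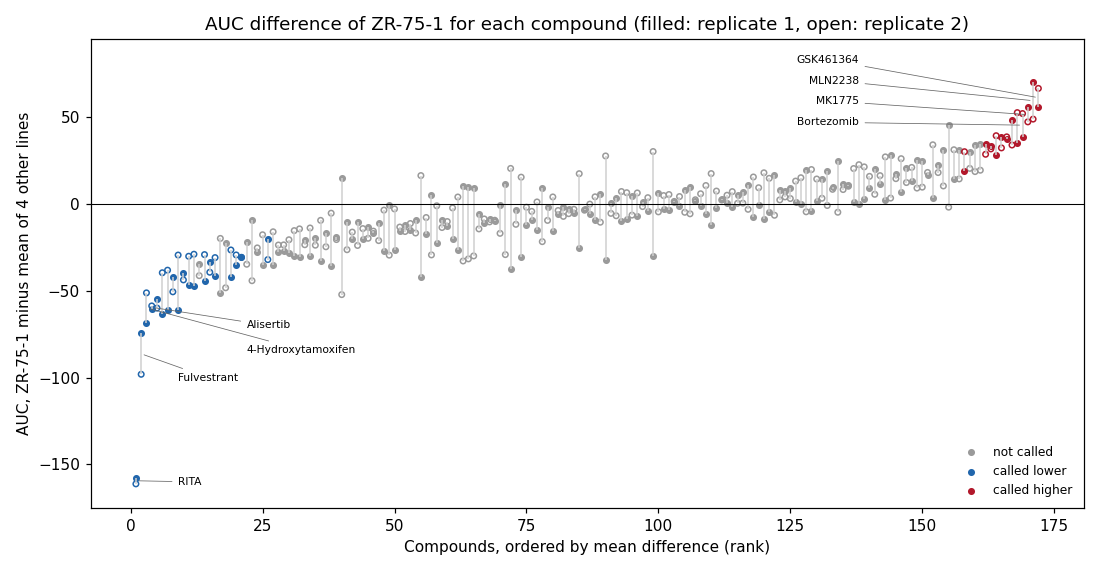
Difference in AUC (AUC units, y axis) between ZR-75-1 and the mean of the other 4 lines for all compounds compared in order of their mean difference (rank, x axis). Filled points are replicate 1 and open points replicate 2, joined by a line, with the 19 compounds called lower in blue and the 12 called higher in red. RITA lies apart from all other compounds at −159.4, and Fulvestrant follows at −86.3.

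Both ligands of the estrogen receptor lowered the cell number of ZR-75-1 more than that of the other lines. The Fulvestrant AUC was 196.9 and 181.7 in the 2 ZR-75-1 replicates and lay between 250.3 and 303.9 in the 8 values of the other lines. Both ZR-75-1 values were thus below every value of all 4 other lines, which held for 9.88% of all compounds. The difference was −86.3 (SE 7.66, limma adjusted p = 0.000111), with ZR-75-1 at 68.7% of the other lines' mean AUC. For 4-OHT the ZR-75-1 values were 208.1 and 208.5, and the other lines lay between 250.6 and 283.2, again without overlap. The difference was −59.9 (SE 8.90, limma adjusted p = 0.0021). These were the only compounds compared whose AUC in ZR-75-1 was lower, past the threshold, in each of the pairwise contrasts with the 4 other lines. With the replicate block, 6 compounds met this, namely Alisertib, Bexarotene, KW2449 and Linsitinib besides these. Neither ER ligand passed with the spread between lines as the error (adjusted p = 0.431 for both) or with sgNT alone (adjusted p = 0.113 for Fulvestrant and 0.124 for 4-OHT).

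The shape of the response differed between these ligands. With Fulvestrant, ZR-75-1 stood at 79.7 and 64.4% of DMSO already at 0.01 µM and at 76.8 and 56.2% at 10 µM, so its curve was nearly flat over a 1000-fold range of dose. The widest gap was at 1 µM, where ZR-75-1 averaged 58.4% and the other lines 96.3%. With 4-OHT, ZR-75-1 averaged 78.3, 78 and 71.1% at the 3 lower doses, beside 98, 92.1 and 93.7% in the other lines. At 10 µM it dropped to 40.1%, but SKBR3 stood at 41.1% there and the remaining lines at 66 to 80.2%. The gap to the mean of the other lines was widest at that dose, −26.7 percentage points (limma adjusted p = 0.0123 for this dose alone), although ZR-75-1 and SKBR3 were close there. For Fulvestrant the highest dose alone gave −23.3 and did not pass (limma adjusted p = 0.0835).

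The aromatase and steroid synthesis inhibitors did not give such a difference. Anastrozole, Letrozole and Exemestane block aromatase, and Abiraterone blocks an earlier enzyme of androgen synthesis. The ZR-75-1 AUC was 323.3 and 295.2 with Anastrozole, 286.4 and 289.96 with Letrozole, 320.9 and 270.3 with Exemestane, and 328.5 and 309.03 with Abiraterone. None of these means was far below the untreated 300. The differences from the other lines were −20.8, −1.38, −6.17 and −10.4, and 0 of the 4 passed the test, with limma adjusted p between 0.311 and 0.940. Over all compounds 11% were called lower, and for a class of 4 a count of 0 is close to that share. Anastrozole, Letrozole and Abiraterone were tested only up to 1 µM and Exemestane up to 10 µM. At an unadjusted p of under 0.05 the whole comparison gave 31 lower and 17 higher compounds.

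**Figure D2:**
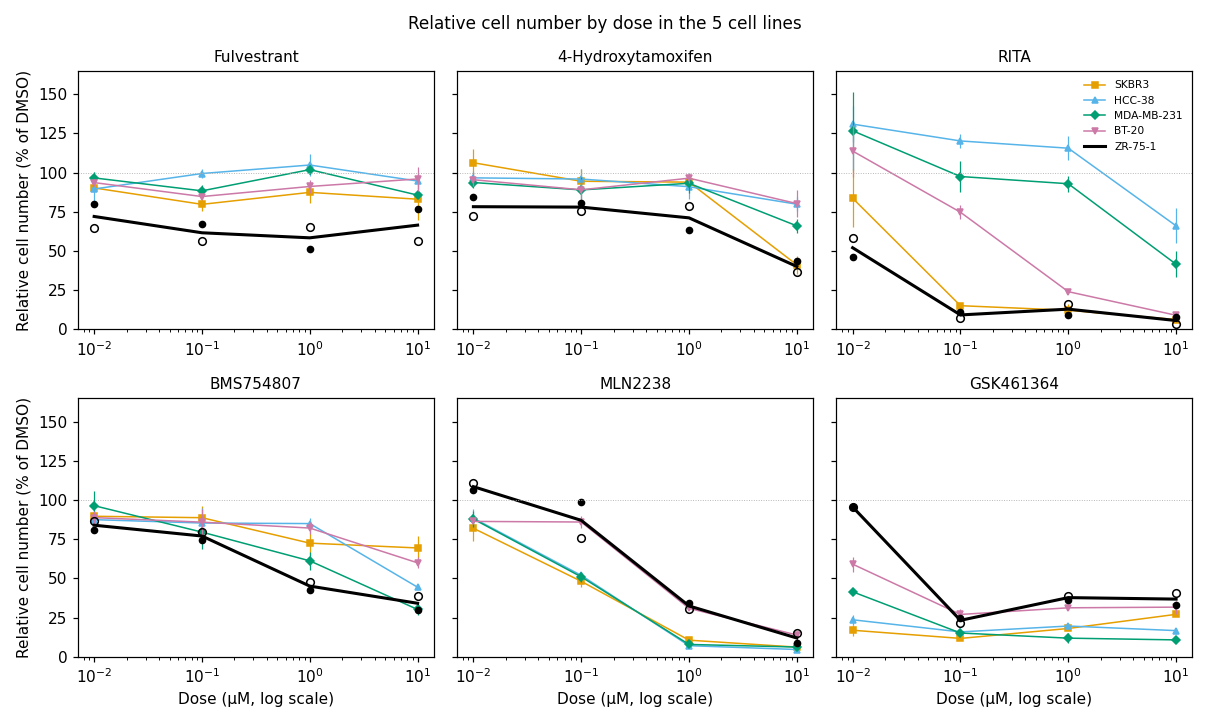
Relative cell number (percent of DMSO, y axis) against dose (µM, log scale, x axis) for 6 compounds, with ZR-75-1 in black (thick line, mean; filled and open points, replicates 1 and 2) and the other lines in color (points, mean; vertical lines, range of the 2 replicates). ZR-75-1 lies below the others from 0.01 µM with Fulvestrant, joins SKBR3 at the top dose of 4-Hydroxytamoxifen and at 0.1 µM and above with RITA, and lies above all others at 0.01 µM with GSK461364.

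Inhibitors of the IGF1 and insulin receptors, the kinases at the head of this growth pathway, were all lower in ZR-75-1. All 3 of the class were called, and their median difference was −36.3, beside 11% called lower and a median of −3.23 over all compounds. With BMS754807 the ZR-75-1 AUC was 172.7 and 189.9, under the lowest of the other values, 196.1, and the difference was −49.7 (SE 7.95, limma adjusted p = 0.00255). With Linsitinib, ZR-75-1 gave 243.6 and 250.4 against 272.2 to 300.3 in the other lines, a difference of −36.3. With BMS536924 it gave 205.4 and 220.5 against 228.2 to 281.4, a difference of −34.4. ZR-75-1 thus did not overlap with any other line for any of the 3, although the nearest line, MDA-MB-231, came close with BMS754807 and BMS536924. Both ZR-75-1 values lay below all others for 9.88% of all compounds. The 3 were called on these same values, which favors a lack of overlap among them. The gap was clearest at 1 µM, where ZR-75-1 averaged 45.1% with BMS754807 and 66.1% with Linsitinib, and the other lines 75.3 and 87.7%. At 10 µM of BMS754807, MDA-MB-231 stood under ZR-75-1, at 30.2 against 34.2%. Against single lines, BMS536924 passed only against BT-20 (limma adjusted p = 0.0035), not against SKBR3 (0.0543), HCC-38 (0.0927) or MDA-MB-231 (0.317). Its call was lost with all 12 sgRNAs (0.111), with the DMSO wells of the same dose and replicate (0.0509) and without BT-20 (0.0662). The Linsitinib wells had a median of 10.5% swapped barcodes, and the part of swapping in its difference was not tested beyond the fits given in the closing section.

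PI3K, downstream of these receptors, makes the lipid signal that activates AKT. Of 9 PI3K inhibitors 1 was called lower, AZD8186, a share like the 11% over all compounds, and the median difference was −9.91 beside −3.23. The AZD8186 values of ZR-75-1, 236.3 and 274.4, overlapped with those of the other lines, which began at 260.8. Its difference was −51.5 (SE 11.6, limma adjusted p = 0.013), its wells had a median of 14.1% swapped barcodes, and SKBR3 was nearest with 271.5. PI103, another PI3K inhibitor, gave −25.3 and just missed the threshold (limma adjusted p = 0.0671), and GSK1059615 gave the highest value of the class, 16.5. Of 6 AKT and mTOR inhibitors 0 were called, and AZD5363, an AKT inhibitor, stood at 20.1 (limma adjusted p = 0.117).

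RAF kinases activate MEK, and each class of inhibitors held 1 call among 3 compounds, beside 11% called lower and 6.98% called higher over all compounds. The MEK inhibitor called lower was Trametinib, with ZR-75-1 at 217.6 and 205.7. MDA-MB-231 was lower still with 193.8 and 182.3, and the other 3 lines were at 244.4 to 262.6, so the call rests on those 3, and it was lost without SKBR3, HCC-38 or BT-20 (adjusted p of 0.123, 0.0979 and 0.106). The difference was −26.3 (SE 7.67, limma adjusted p = 0.0419), while PD318088, also a MEK inhibitor, gave −4.26. The RAF inhibitor called higher was GDC0879, with 357.2 and 367.1 in ZR-75-1, both above the untreated 300, and 289.4 to 369.5 in the other lines. Its difference was 35.3 (limma adjusted p = 0.0298), a call lost on the log2 scale (0.0795) and without MDA-MB-231 (0.0824), and those of PLX4720 and Dabrafenib, which target mutant BRAF, were 27.1 (limma adjusted p = 0.0832) and 2.56. With all 3 RAF inhibitors, both ZR-75-1 values exceeded 300. The other lines were high as well, with a class median AUC of 326.9 beside 336.7 in ZR-75-1.

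EGFR and HER2 are related growth factor receptors, and HER2 is the one amplified in the HER2+ subtype. Among 6 inhibitors of these receptors 1 was called lower, Gefitinib, which targets EGFR, beside 11% called lower over all compounds. ZR-75-1 gave 230.7 and 228.3, SKBR3 222.6 and 215.3, and the other lines 256.2 to 314.6. ZR-75-1 lay between SKBR3 and the triple-negative lines, with a difference from the mean of all 4 of −36.6 (SE 10.4, limma adjusted p = 0.0374). Against BT-20 alone the difference was −26.9 and did not pass (adjusted p = 0.207), and the call was lost without HCC-38 or MDA-MB-231. Erlotinib, which also targets EGFR, gave −16.6 (0.266), and Afatinib, an irreversible inhibitor of EGFR and HER2, gave the highest value of the class, 17.2. Of 11 inhibitors of VEGF receptors and related kinases 1 was called lower, Ki8751, a share like the 11% over all compounds. ZR-75-1 gave 232.8 and 211.7 with it against 233.4 to 310.4, a difference of −46.3 (SE 11, adjusted p = 0.0166). The ZR-75-1 cell number was 42.2% at 10 µM of Ki8751, and the lowest other line, BT-20, was at 60.9%. Linifanib stood at the other end of that class with 8.14.

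RITA, a small molecule annotated as acting on p53, the DNA damage-responsive tumor suppressor, gave the widest difference of the screen. ZR-75-1 had an AUC of 47.7 and 54.1, SKBR3 61.2 and 83.2, BT-20 156.6 and 163.7, MDA-MB-231 281.2 and 267.9, and HCC-38 322.2 and 346.4. ZR-75-1 was lowest and its values did not overlap with any other line, but those of SKBR3 were close. ZR-75-1 minus the mean of the others was −159.4 (SE 9.11, limma adjusted p = 4.94e-06), but ZR-75-1 minus SKBR3 was −21.3 and did not pass the test (adjusted p = 0.304). At 0.1 µM, ZR-75-1 was at 11.4 and 7.01% of DMSO, SKBR3 averaged 15.1% and HCC-38 120%. RITA wells held at most 23261 ZR-75-1 reads, included the smallest ZR-75-1 count of any compound well, and had a median of 19.9% swapped barcodes. Swapped reads could be up to 36.7% of the ZR-75-1 reads of a RITA well. The other compounds of the class were SJ172550, an inhibitor of the p53 regulator MDMX, with 246.6 and 231.1 against 248.4 to 290.1 (difference −36.5, adjusted p = 0.0167), and PifithrinAlpha, a p53 inhibitor, with −22.2 (0.146).

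Inhibitors of mitotic and checkpoint kinases split in both directions, with 2 of 5 called lower and 2 called higher, beside 11% and 6.98% over all compounds. Aurora kinases build the mitotic spindle, and Alisertib, an Aurora A inhibitor, gave 155.5 and 169.99 in ZR-75-1 against 190.3 to 270.1 elsewhere. KW2449, annotated against Aurora kinases among others, gave 220.99 and 205.6 against 231.6 to 291.7. Neither overlapped, where 9.88% of all compounds had both ZR-75-1 values below all others. The differences were −59.5 for Alisertib (SE 8.72, limma adjusted p = 0.0021) and −41.7 for KW2449 (SE 8.43, adjusted p = 0.00875). The gap of Alisertib was widest at 0.1 µM, where ZR-75-1 stood at 41.1 and 38.2% and the other lines averaged 70.1%.

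GSK461364 and MK1775 left more ZR-75-1 cells than cells of the other lines. PLK1 drives entry into mitosis, and with its inhibitor GSK461364 ZR-75-1 had an AUC of 125.6 and 129.05, above all other values, 48 to 106.4. The difference of 61.1 (SE 6.67, limma adjusted p = 0.000417) was the highest of the screen, with ZR-75-1 at 192.4% of the other lines' mean. At 0.01 µM the ZR-75-1 cell number was still 95.6 and 95.7% of DMSO and that of the other lines 17 to 59.1%, while at 0.1 µM ZR-75-1 was at 24.7 and 21.8%. MK1775 inhibits WEE1, which holds cells back from mitosis. It gave 230.4 and 216.4 in ZR-75-1 against 156.7 to 191.95, a difference of 51.4 (SE 7.91, adjusted p = 0.00227), and at 1 µM ZR-75-1 averaged 72.7% and the other lines 29.5%.

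Proteasome inhibitors, which block the degradation of ubiquitin-tagged proteins, were mostly higher in ZR-75-1, and 3 of 4 were called (median difference 44.5), beside 6.98% called higher over all compounds and a median of −3.23. MLN2238 gave 190.8 and 168.95, with BT-20 at 169.99 and 164.3 and the other 3 lines at 100.9 to 106.5. ZR-75-1 and BT-20 overlapped and both stood above SKBR3, HCC-38 and MDA-MB-231. The same held for Bortezomib, with 161.5 and 167.4 in ZR-75-1, 161.8 and 157.2 in BT-20, and 95.4 to 114.6 in the remaining lines. Carfilzomib gave 146.9 and 163.6 in ZR-75-1, 146.2 and 153.6 in BT-20, and 79.8 to 129.1 in the others. Differences from the mean of the 4 lines were 59.4 (SE 7.41), 45.3 (7.04) and 43.7 (7.56), with limma adjusted p of 0.000927, 0.00227 and 0.00409. Against BT-20 alone none of the 3 passed (adjusted p of 0.38, 0.77 and 0.77). MG132, a peptide aldehyde that inhibits the proteasome, gave 185.9 and 181.7 against 146.8 to 200.3, a difference of 17 that did not pass (0.220). The Bortezomib gap lay at 0.01 µM, where ZR-75-1 averaged 97.5% and the other lines 56.4%. At 1 µM of Carfilzomib, its highest dose, ZR-75-1 was at 5.23 and 6.05% and the others averaged 8.17%.

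BCL2 family inhibitors release the mitochondrial brake on apoptosis, and 2 of 3 were called higher, beside 6.98% over all compounds. ABT737 and Navitoclax are close relatives that bind BCL2 and BCL-XL. With ABT737, ZR-75-1 gave 307.5 and 308.8, and the other lines 248.6 to 293.3. With Navitoclax it gave 316.7 and 299.2 against 248.4 to 282.7. Both compounds thus left ZR-75-1 near its untreated AUC and above every other value, with differences of 37.9 (SE 8.19, limma adjusted p = 0.0112) and 41.2 (SE 7.68, adjusted p = 0.00596). Over all compounds, both ZR-75-1 values lay above all others for 2.91%. At 10 µM of ABT737 ZR-75-1 was at 92.5 and 101.2% of DMSO and the other lines averaged 70.5%. Gossypol, a natural product of the same class, gave 9.81.

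Classical cytotoxic compounds were mixed, and their counts stand beside 11% called lower and 6.98% called higher over all compounds. Among 6 antimetabolites, the nucleoside analogs Clofarabine and Gemcitabine were called higher, with differences of 33.7 (SE 6.82) and 31.5 (SE 6.50). ZR-75-1 had 141.6 and 156.3 with Clofarabine and 97.3 and 88.8 with Gemcitabine. In both cases BT-20 was at or above ZR-75-1, and the highest other values were 168.4 and 107.2. FiveFluorouracil, also an antimetabolite, lay at the low end of the class with −35.3 (limma adjusted p = 0.0873). Of 6 tubulin and kinesin compounds, Paclitaxel, which stabilizes microtubules, was called higher with 94.6 and 102.96 against 32.9 to 99.9 (difference 32.4, adjusted p = 0.0155), and Tivantinib was lowest with −10.2. Of 6 topoisomerase poisons, which trap the enzyme on broken DNA, 0 were called and their differences ran only from −0.334 to 13.9. Of 7 alkylators and cisplatin 0 were called (median −13.0).

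Of the 4 other nuclear receptor ligands 1 was called lower, Bexarotene, an agonist of the retinoid X receptor, beside 11% over all compounds. ZR-75-1 had an AUC of 240.2 and 229.8, SKBR3 262.6 and 268.99, and BT-20, at the other end, 333.1 and 330.3. ZR-75-1 lay below all other values, and the difference was −57.4 (SE 7.69, limma adjusted p = 0.00131). The cell number of ZR-75-1 was 70.2% at 0.1 µM and 78.3% at 10 µM of Bexarotene, a shallow curve, while that of BT-20 stayed above 100% at all 4 doses. GSK4112, a REV-ERB agonist, gave 17.3, the highest value of this class of 4. Among 4 electrophiles that activate the oxidative stress factor NRF2, 1 was called lower, BardoxoloneMethyl, beside 11% over all compounds. ZR-75-1 gave 110.1 and 113.01 with BardoxoloneMethyl against 117.98 to 181.5 (difference −38.3, SE 7.93, adjusted p = 0.00892). At 0.1 µM ZR-75-1 stood at 49.6 and 47.6% with it and the other lines averaged 81.4%. DimethylFumarate was highest of that class with 12.6.

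Of 40 compounds outside any class, 4 were called lower and 1 higher, with a median difference of −5.22. Over all compounds 11% were called lower and 6.98% higher, with a median of −3.23. Necrostatin1, an inhibitor of the cell death kinase RIPK1, gave 202.03 and 236.9 in ZR-75-1 against 229.5 to 299.1, an overlap, and a difference of −45.4 (SE 9.21, limma adjusted p = 0.00875). Mdivi1, described as an inhibitor of the mitochondrial fission protein DRP1, gave −38.2 (adjusted p = 0.012), and Etomoxir, which blocks fatty acid entry into mitochondria, −32.2 (0.0374). With Etomoxir ZR-75-1 had 63.9 and 66.2% at 10 µM, where the other lines averaged 94.1%, and 87.2 and 90.9% at 1 µM, where they averaged 103.4%, and these doses added about equally to the AUC difference. Trifluoperazine, a dopamine receptor antagonist, gave −30.6 (adjusted p = 0.0314), and LRRK2IN1, an inhibitor of the kinase LRRK2, gave 24.5 (0.0374). The LRRK2IN1 difference lay at 0.1 µM (109.9 against 90%), and at 10 µM alone it was reversed, −8.68 (0.0355).

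**Figure D3:**
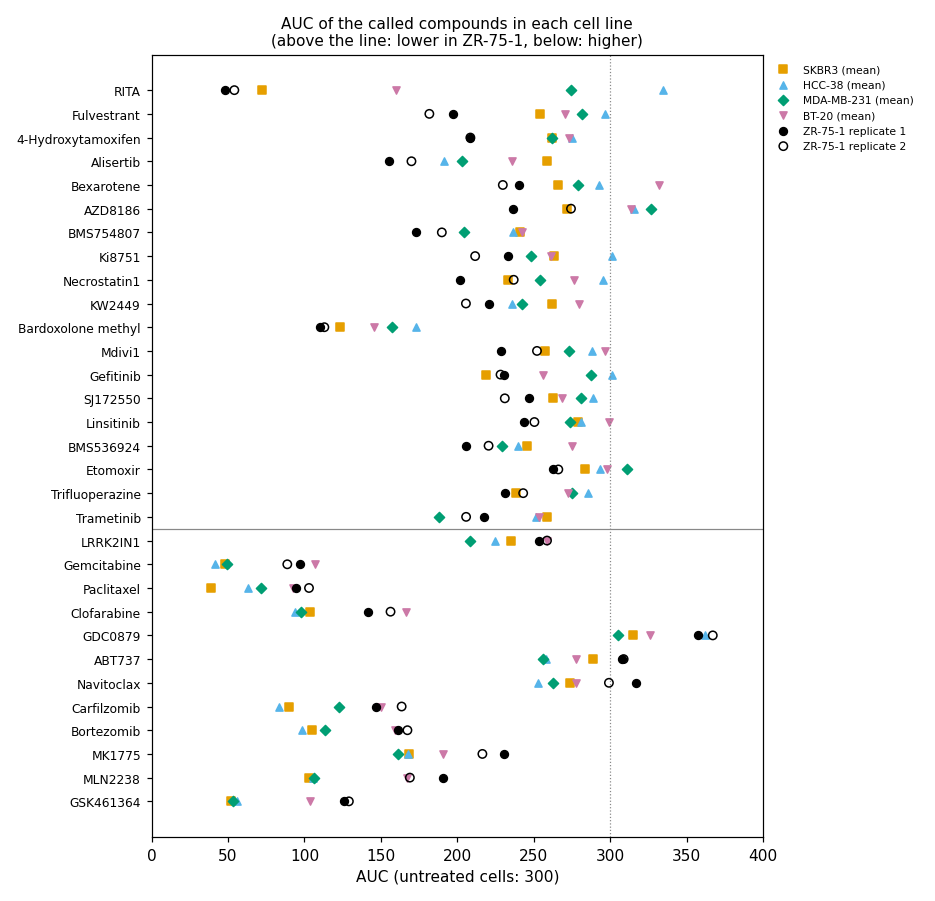
AUC (x axis, untreated cells 300) of the 31 called compounds (rows) in each cell line, with both ZR-75-1 replicates as black points and the mean of each other line as a colored symbol. ZR-75-1 is the lowest line for 17 of the 19 compounds in the upper block and the highest for 9 of the 12 in the lower block, where BT-20 is often next to it.

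How far ZR-75-1 stood outside the range of the other lines varied. Over all compounds it was the lowest of the 5 lines for 44 and the highest for 27. Among the called compounds it was lowest for 17 of 19 and highest for 9 of 12. Both ZR-75-1 values lay below all 8 values of the other lines for 14 of the 19 compounds called lower, and above them for 4 of the 12 called higher. Over all compounds these counts were 17 (9.88%) and 5 (2.91%). The calls were made on the difference from these same lines and replicates, so the higher shares among them follow in part from the selection. Among the lower calls, the values of AZD8186, Necrostatin1, Gefitinib, Trifluoperazine and Trametinib overlapped with the others, and for Gefitinib and Trametinib another line, SKBR3 or MDA-MB-231, was lower than ZR-75-1.

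The other lines did not contribute equally. Against SKBR3 alone, ZR-75-1 was lower for 10 compounds (5.81%) and higher for 22 (12.8%), against HCC-38 lower for 26 (15.1%) and higher for 17 (9.88%), and against MDA-MB-231 lower for 16 (9.3%) and higher for 15 (8.72%). Against BT-20 it was lower for 30 (17.4%) and higher for 0 (0%), a count that the replicate block raised to 8. These contrasts share the ZR-75-1 values. Of the 19 compounds called lower, ZR-75-1 was below SKBR3 for 18, HCC-38 for 19, MDA-MB-231 for 18 and BT-20 for 19, with 7, 15, 11 and 15 passing the pairwise test. Of the 12 called higher, it was above SKBR3, HCC-38 and MDA-MB-231 for all 12 and above BT-20 for 9, with 10, 11, 11 and 0 passing. Leaving out 1 of the other lines ended the calls of BMS536924, Etomoxir, Gefitinib, Ki8751, Trametinib and Trifluoperazine among the lower and of GDC0879, LRRK2IN1 and Paclitaxel among the higher. Across the same compounds, the ZR-75-1 AUC had a Pearson r of 0.932 with BT-20, 0.923 with SKBR3, 0.889 with MDA-MB-231 and 0.857 with HCC-38, values that share wells, doses and compounds.

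**Figure D4:**
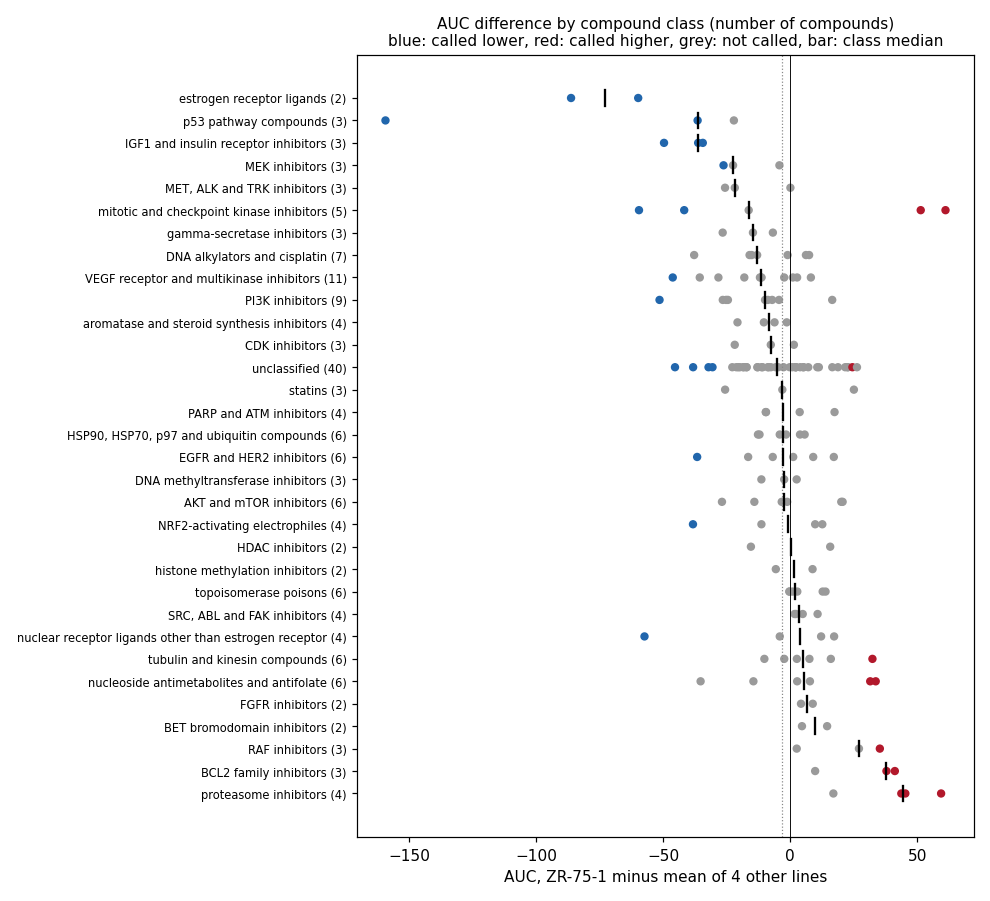
AUC difference (ZR-75-1 minus the mean of the other 4 lines, x axis) of each compound (points) by class (rows, with the number of compounds), colored blue where called lower, red where called higher and grey where not called. Black bars are class medians, which run from −73.1 for estrogen receptor ligands to 44.5 for proteasome inhibitors, and the dotted line is the median of all compounds, −3.23.

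The largest part of the difference usually came from a middle dose, among the called compounds and for most of those not called. After weighting, the second-highest dose gave the largest part of the difference for 12 of the 19 compounds called lower, the second-lowest for 6 and the highest for 1. For the 12 called higher, the second-lowest dose gave the largest part for 7, the second-highest for 4 and the lowest for 1. The inner doses have a weight of 1 and the outer ones 0.5, which favors the inner doses in this count. A plate of the second-highest dose in replicate 2 was shallow, with 15046 to 25288 ZR-75-1 reads in its DMSO wells against 36171 to 94934 on a plate of that dose in replicate 1.

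The difference was mostly shared by the sgRNAs, which mark subpopulations of ZR-75-1 in the same wells and are not replicates. RITA, Fulvestrant, 4-OHT, Alisertib, BMS754807, Ki8751 and BardoxoloneMethyl were lower in ZR-75-1 with all 10 sgRNAs in both replicates, which makes 7 of the 19 lower calls, and no other compound was (4.07% of all). GSK461364 and Gemcitabine were higher with all 10, the only 2 of all compounds (1.16%). The lower calls had a median of 9 sgRNAs lower in both replicates, beside 3 over all compounds, and the fewest was 5, for Mdivi1. The higher calls had a median of 9 higher in both replicates, beside 2 over all compounds, and the fewest was 5, for Navitoclax. The calls were made on the mean over these same sgRNAs and replicates, so the excess over all compounds follows in part from the selection. For Fulvestrant the difference per sgRNA ran from −106 to −66.6, the latter being sgNT, and for 4-OHT from −97.0 to −42.7. AZD8186 had a wider range, from −78.7 to 22, and Bexarotene ran from −142.5 to −9.54. Among the lower calls, sgSLC35F2 was the lowest sgRNA for Bexarotene, SJ172550, Mdivi1, KW2449, Trifluoperazine, BMS754807 and BMS536924. It was the highest for RITA, AZD8186 and Linsitinib. Of the sgRNAs used it had the fewest ZR-75-1 reads, with a median of 1437.5 per DMSO well. The part of sgSLC35F2 in these calls was not tested.

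**Figure D5:**
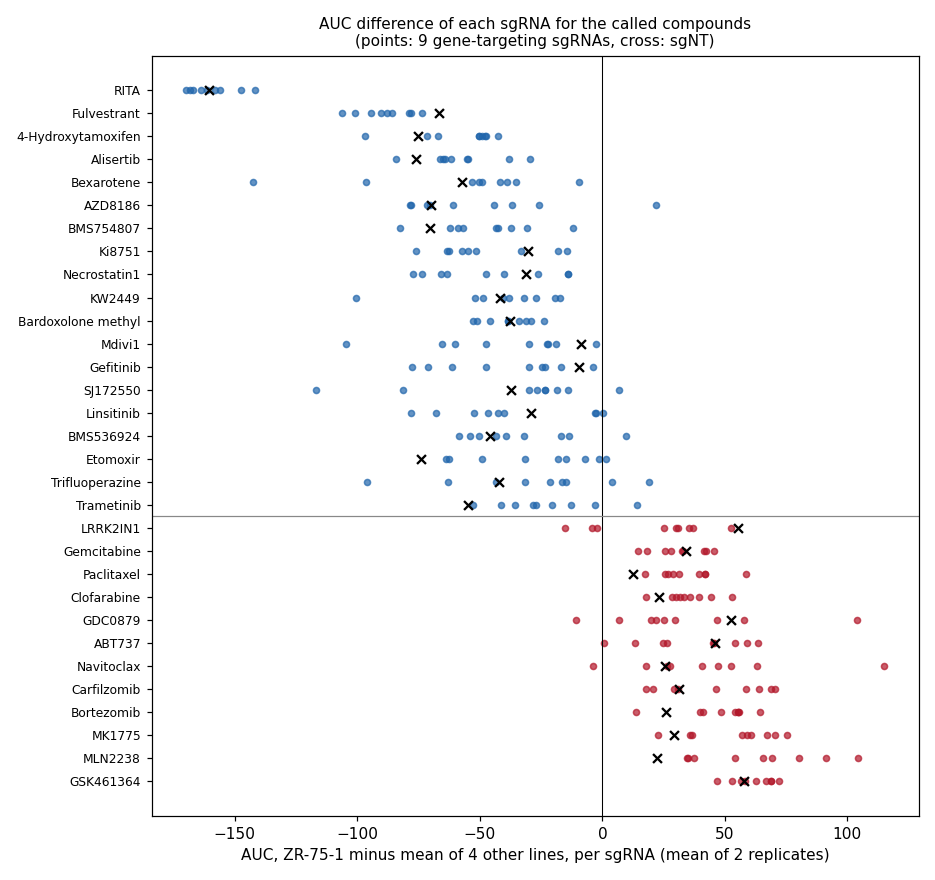
AUC difference (ZR-75-1 minus the mean of the other 4 lines, mean of 2 replicates, x axis) for each sgRNA in the 31 called compounds (rows), with points for the 9 gene-targeting sgRNAs and a cross for sgNT. All 10 values lie on the same side of 0 for RITA (−170 to −142), Fulvestrant, 4-Hydroxytamoxifen and GSK461364 (46.6 to 71.9), whereas AZD8186, Trametinib and LRRK2IN1 have sgRNAs on both sides.

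Near the threshold the order was continuous. The lower calls with the highest adjusted p were Trametinib (0.0419), Gefitinib (0.0374) and Etomoxir (0.0374), and the compounds just short of it were Crizotinib, a MET and ALK inhibitor (−21.8, adjusted p = 0.0629), PI103 (0.0671) and Thalidomide, which redirects the ubiquitin ligase cereblon (−22.8, 0.0709). On the higher side LRRK2IN1 (0.0374) and GDC0879 (0.0298) were inside it, and PLX4720 (0.0832), Lovastatin, a statin (25.1, 0.0837), and AZD5363 (0.117) were outside it. All of these values come from the same limma fit.

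Structurally related compounds tested at the same 4 doses were compared within ZR-75-1 in 7 pairs, with limma p-values adjusted over the pairs and a standard error of 17.8 AUC units per difference. Etoposide and Teniposide are podophyllotoxin glycosides that differ in the group on the sugar acetal, a methyl in Etoposide and a thienyl in Teniposide. Etoposide left more ZR-75-1 cells, with an AUC of 165.95 and 169.3 against 118.99 and 131.9, and the difference of 42.2 (95% interval 7.07 to 77.3) did not pass after adjustment (0.126). On the log2 scale it did pass, at 0.42 (0.00083). The gap was at 0.1 µM, where ZR-75-1 averaged 67.5% with Etoposide and 37.5% with Teniposide. Gefitinib and Erlotinib, anilinoquinazolines with different substituents on both rings, differed by −37.6 (−72.7 to −2.47, adjusted p = 0.126), Gefitinib being lower.

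The remaining pairs did not differ past the threshold, but the intervals allow sizable differences. Lovastatin minus Simvastatin, which has an extra methyl on its ester side chain, was 12.5 (−22.6 to 47.6). Cyclophosphamide minus its isomer Ifosfamide was 11.3 (−23.8 to 46.4), and Afatinib minus Canertinib, both acrylamide-type quinazolines, was −1.74 (−36.8 to 33.4). ABT737 minus Navitoclax was 0.212 (−34.9 to 35.3), and KU55933 minus KU60019, both inhibitors of the DNA damage kinase ATM, was 0.674 (−34.4 to 35.8). The limma adjusted p was 0.919 for the first 2 of these and 0.990 for the others.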

How the data were processed

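Read counts per pair of cell line and sgRNA barcode were deposited by the authors for every well, demultiplexed with bcl2fastq, allowing 1 mismatch per barcode, without alignment or normalization (126 pairs, PCR reads without molecular identifiers, so depth covers counting error only). A further deposited table gives relative cell numbers, a ratio (times 100) of the cells interpolated from the 293T spike-in standards of a well to the median of DMSO wells. Recomputing 83520 of these from the counts and all 96 DMSO wells gave the same values within 5.32e-05 on the log2 scale. Of the 180 compounds, 6 had no ratios and were not compared, which with Ruxolitinib and STF083010 left 172 in 1376 wells.

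The AUC was the sum over 4 doses of the mean over 10 sgRNA columns, with weights 0.5, 1, 1 and 0.5, per line and replicate. limma 3.58.1 (R 4.3.3) was fitted per compound to 5 lines in 2 replicates, with the contrast of ZR-75-1 minus the mean of the other lines, two-sided, and Benjamini-Hochberg adjustment over 172 compounds. Pairwise contrasts were adjusted within each line. For analog pairs the standard error came from limma's moderated variance of the ZR-75-1 replicates. Swapped barcodes were measured from reads on 41 pairs that were never made.

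The 2 replicate numbers mark shared wells: all lines of a replicate came from the same wells, and the correlation over compounds of the replicate deviations of ZR-75-1 with those of the other lines was 0.590 (SKBR3), 0.599 (BT-20), 0.576 (MDA-MB-231) and 0.316 (HCC-38). The replicate block was therefore also fitted. Alternatives were the log2 AUC, other summaries over sgRNAs, the highest dose alone, other DMSO references, swapped reads subtracted, edgeR 4.0.16 on read counts, leaving out a line or replicate, the spread between lines, other sets of compounds and, chosen after seeing the data, compounds with under 10% swapped barcodes.

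Compounds named with values were, by rule, the 12 lowest and 12 highest calls, all estrogen receptor ligands and aromatase and steroid synthesis inhibitors, the called, lowest and highest members of each other class with a call, the analog pairs and the 3 compounds on either side of each threshold. Others named were chosen after their values were seen. The compounds, the 31 classes (132 compounds, by annotated target) and the rule were chosen with earlier results of these data known. The scripts were tested on simulated data.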

Additional observations from a re-analysis of the deposited data

Results flagged for a closer look

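The counts of 19 compounds with a lower and 12 with a higher AUC in ZR-75-1 than in the other lines are differences between cell lines, each tested by the limma contrast. With ABT737, the mean ZR-75-1 AUC of 308.2 was above the untreated 300, with both replicates above it, whereas all 8 values of the other lines, 248.6 to 293.3, were below it.

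In the DMSO wells of plate 2, ZR-75-1 in well F10 stood at 142.5% of the DMSO median and in the other 5 wells at 86.9 to 103.9%. This was 1 of 32 groups of DMSO wells examined, and chance flags about 1 in 20.

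STF083010, an IRE1 inhibitor that the methods left out, had a mean ZR-75-1 AUC of 281.9 against 322.8 in the other lines, a difference of −40.9 (SE 10.4, limma adjusted p = 0.0221 in a fit that held it). Ruxolitinib, a JAK inhibitor left out with it, had −9.64 (0.574). The paper excluded both compounds for an AUC above its limit, and proposes a technical problem with the well position they shared.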

How the results depend on the processing

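The lower and higher calls numbered 40 and 17 with the replicate block, 62 and 32 with edgeR on reads, and 35 and 10 at the highest dose alone, and all 31 calls held with the block and with edgeR. All 31 also held with swapped reads subtracted. With the spread between lines as the error (ZR-75-1 as 1 line against 4), limma made 0 lower and 0 higher calls (4 and 3 at an unadjusted p of under 0.05). With sgNT alone it made 2 lower and 0 higher calls (26 and 7 unadjusted), the 2 being RITA and Pazopanib. Under these settings 4-OHT stood at −59.9 (limma adjusted p = 0.431) and −75.3 (0.124), and Fulvestrant at −86.3 (0.431) and −66.6 (0.113). Fulvestrant at the highest dose alone was −23.3 (0.0835). Of the 19 lower and 12 higher calls, 14 and 11 held with all 12 sgRNAs and 17 and 10 on the log2 scale. With cells summed over sgRNAs 13 and 12 held, and with the DMSO wells of the same dose and replicate 14 and 12. Those DMSO wells ended the calls of BMS536924, Etomoxir, Gefitinib, Trametinib and Trifluoperazine (limma adjusted p of 0.0509 to 0.0858). Apart from the spread between lines and sgNT alone, RITA, 4-OHT, Bexarotene, BMS754807, Necrostatin1, Mdivi1 and Linsitinib (lower) and Clofarabine, ABT737, Navitoclax and GSK461364 (higher) were called in every fit that held them. At the highest dose alone Carfilzomib was −2.53 (0.47) and LRRK2IN1 −8.68 (0.0355), the reverse of their AUC differences.

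Leaving out 1 line ended the calls of Paclitaxel and Trametinib (without SKBR3), Gefitinib, Ki8751, LRRK2IN1, Trametinib and Trifluoperazine (without HCC-38), Etomoxir, GDC0879, Gefitinib and LRRK2IN1 (without MDA-MB-231), and BMS536924 and Trametinib (without BT-20).

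The median difference over all compounds changed sign to 3.68 with all 12 sgRNAs and to 0.244 with the DMSO wells of the same dose and replicate. It was −14.5 with sgNT alone, −4.79 with the median of sgRNAs, −1.05 with cells summed over sgRNAs, −4.43 at the highest dose alone, −0.0161 for log2 AUC and −0.0198 for edgeR (both log2), −4.19 over the 70.9% of compounds with a fall in cell number, −6.06 without SKBR3, −4.60 without MDA-MB-231, −0.837 without BT-20, −4.57 with the median of the 4 other lines, −1.38 over all but the 21 compounds with 10% or more swapped barcodes (16 lower and 12 higher calls, a set chosen after seeing the data), and −3.78 to −3.004 with 1 replicate left out, a value with no test. The set with under 10% swapped barcodes left out 3 of the compounds called lower, RITA, AZD8186 and Linsitinib, and so could not test them. With the replicate block, the compounds lower than in SKBR3 alone were 17, in BT-20 alone 55, in HCC-38 alone 45 and in MDA-MB-231 alone 36. Etoposide minus Teniposide passed on the log2 scale (0.42, adjusted p = 0.00083).

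For single compounds, 86.3% of the values under alternatives kept direction and call, 8.28% lost a call, 48 values gained 1, 20 moved and 2 reversed, and 60 more changed sign with no call in either fit. The cause of these changes was not tested. Differences near their standard error (median 9.21) were not detectable with 2 wells per dose, and the read count was lowest for RITA.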

Other observations

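Other classes gave no called compound, beside 11% called lower and 6.98% called higher over all compounds. In classes this small a count of 0 is close to these shares. The 3 inhibitors of MET, ALK and TRK had a median difference of −21.8, the 3 gamma-secretase inhibitors, which block Notch cleavage, −14.7, and the 3 CDK inhibitors −7.65, of which Palbociclib, a CDK4 and CDK6 inhibitor, gave a ZR-75-1 AUC of 149.5 and 131.2 beside 121.8 to 177.6 in the other lines. The 6 compounds against HSP90, HSP70, p97 and the ubiquitin system, which act on protein folding and turnover as the proteasome inhibitors do, had a median of −2.88 and ran from −12.7 for Ganetespib, an HSP90 inhibitor, to 5.68 for NVPAUY922, another HSP90 inhibitor.

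Both ZR-75-1 replicates exceeded the untreated AUC of 300 for 15 compounds. Besides ABT737, GDC0879, PLX4720 and Dabrafenib these included MK0752, a gamma-secretase inhibitor (380.3 and 344.5, difference −6.84), Blebbistatin, a myosin inhibitor (376.02 and 365.4, difference 10.6), and Cimetidine, a histamine H2 antagonist (353.2 and 321.5, difference 26.3), none of which was called against the other lines.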
